A study of Homo sapiens with 4 samples.

Results

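Cells short of oxygen switch on a shared set of genes, and 35 genes of that response were followed here in human embryoid bodies given TBBD or its solvent DMSO. They comprised 16 genes of glucose uptake, glycolysis and lactate export, 17 other targets of the hypoxia response, and 2 genes, HIF1A and EPAS1, that encode its oxygen-regulated transcription factor subunits. The genes were listed by name from the known pathway, with earlier results of these data already known. All 35 were measured, among 18640 genes in all. ERO1A carries the older symbol ERO1L on the array.

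The study measured RNA on 4 Affymetrix Human Gene 1.0 ST arrays. All 4 samples were embryoid bodies, which are floating aggregates in which pluripotent cells begin to differentiate, made from BG01V, a karyotypically abnormal line of human embryonic stem cells. The control group, DMSO 1 and DMSO 2, received DMSO. The treated group, TBBD 1 and TBBD 2, received 10 µM TBBD for 48 h, generally between days 2 and 4 of embryoid body formation. The series title describes TBBD as an inhibitor of arginine methylation on histone H3. The labels number the arrays 1 and 2 within each group without saying what the number stands for, and do not state whether the samples were separate cultures. P-values therefore measure the spread between these samples, which may be technical. All results rest on 1 cell line and on 2 arrays per group.

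In cells with enough oxygen, the prolyl hydroxylases of the EGLN family modify the HIF alpha proteins, which are then bound by the VHL protein and degraded. When oxygen is low, HIF alpha proteins persist, pair with ARNT and bind short DNA motifs near their targets. HIF1A is known mainly for driving glycolytic enzymes, and EPAS1 is known for its expression in endothelial and some mesenchymal cells. Pluripotent cells rely strongly on glycolysis, and the inside of a cell aggregate can be poorly supplied with oxygen. HIF alpha is controlled largely at the protein level, which arrays do not measure.

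Each gene's level is the mean log2 signal of its exon-level probesets, so a difference of 1 is 2-fold. Levels of different genes were not compared with each other, because probes differ in brightness. The median probeset signal was 6.39 to 6.42 on the 4 arrays. Across 348 olfactory receptor genes, which these cells are not expected to express, the median level was 5.40 and the 95th percentile 5.66. Every member exceeded that 95th percentile on every array. CA9 came closest, with levels from 5.66 to 5.83.

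No difference between TBBD and DMSO as groups was detected in the 35 genes. None passed limma's test at an adjusted p of 0.05, against 0 of all 18640 genes (0%), and none had an unadjusted p under 0.05, against 0.746% of all genes. No member had both TBBD arrays on 1 side of both DMSO arrays, where 10.5% of all genes had them above and 10.4% below. Most members instead had TBBD differences of opposite sign under the 2 replicate numbers. Between the arrays numbered 1, 28 of 35 members were higher with TBBD, and between the arrays numbered 2, 28 of 35 were lower with TBBD. Among all genes these shares were 45.2% and 46.7%. Both held for 25 members (71.4%), against 23.6% of all genes. With 1 array per treatment and number, this opposition cannot be tested, and it is given as a description.

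**Figure D1:**
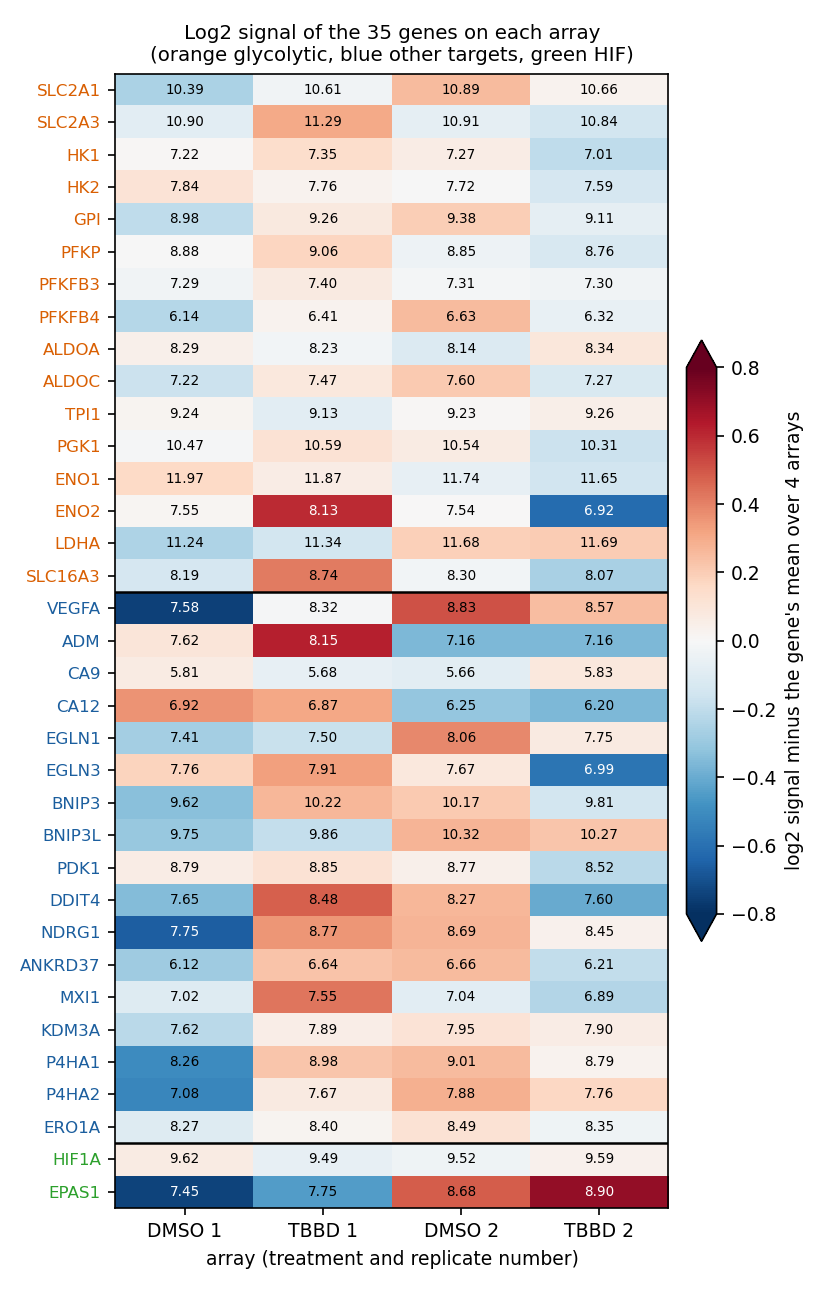
Log2 signal of the 35 genes (rows) on the 4 arrays (columns), with the gene's value printed in each cell and coloured by its distance from that gene's mean over the arrays. NDRG1, VEGFA, P4HA1 and BNIP3 are lowest on DMSO 1, ENO2 and EGLN3 are lowest on TBBD 2, and EPAS1 is high on both arrays numbered 2.

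The proximal promoters of 5 members are shown as examples, with the DNA motif of the HIF complex marked. BNIP3, ANKRD37, DDIT4 and ALDOC were higher with TBBD under number 1 and lower under number 2, and EPAS1 differed between the numbers. The sequences are RefSeq windows of GRCh38.p14, of 300 bases around an annotated start, read 5′ to 3′ on the gene's strand. Capitals mark ACGTG or GCGTG on either strand, so CACGT and CACGC are the same motifs read on the opposite strand, and CACGTG holds ACGTG on both strands. Overlapping matches were merged into 1 stretch.
BNIP3, chr10:131981874-131982173, minus strand: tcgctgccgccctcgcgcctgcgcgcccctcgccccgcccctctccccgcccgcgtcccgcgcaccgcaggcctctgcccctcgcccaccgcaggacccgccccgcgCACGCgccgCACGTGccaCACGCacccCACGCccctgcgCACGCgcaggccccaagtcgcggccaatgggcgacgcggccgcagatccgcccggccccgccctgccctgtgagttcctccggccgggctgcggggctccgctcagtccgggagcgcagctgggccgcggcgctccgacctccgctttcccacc
ANKRD37, chr4:185396591-185396890, plus strand: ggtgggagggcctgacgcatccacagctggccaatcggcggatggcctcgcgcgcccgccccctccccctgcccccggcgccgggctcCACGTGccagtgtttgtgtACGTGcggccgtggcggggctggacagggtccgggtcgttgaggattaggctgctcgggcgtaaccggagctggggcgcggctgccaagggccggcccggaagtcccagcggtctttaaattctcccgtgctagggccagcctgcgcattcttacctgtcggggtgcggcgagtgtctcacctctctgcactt
DDIT4, chr10:72273674-72273973, plus strand: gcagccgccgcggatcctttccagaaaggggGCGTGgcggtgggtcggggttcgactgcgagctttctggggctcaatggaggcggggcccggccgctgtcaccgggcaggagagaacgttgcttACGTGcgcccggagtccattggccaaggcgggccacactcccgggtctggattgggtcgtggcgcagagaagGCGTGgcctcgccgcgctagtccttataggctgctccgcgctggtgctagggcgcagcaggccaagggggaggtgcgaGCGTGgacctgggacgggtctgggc
ALDOC, chr17:28576846-28577145, minus strand: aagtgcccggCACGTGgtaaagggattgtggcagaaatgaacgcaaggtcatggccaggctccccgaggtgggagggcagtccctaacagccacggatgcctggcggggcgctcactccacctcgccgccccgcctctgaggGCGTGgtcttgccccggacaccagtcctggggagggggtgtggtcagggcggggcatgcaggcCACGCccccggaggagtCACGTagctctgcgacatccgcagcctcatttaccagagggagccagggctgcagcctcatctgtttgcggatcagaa
EPAS1, chr2:46297157-46297456, plus strand: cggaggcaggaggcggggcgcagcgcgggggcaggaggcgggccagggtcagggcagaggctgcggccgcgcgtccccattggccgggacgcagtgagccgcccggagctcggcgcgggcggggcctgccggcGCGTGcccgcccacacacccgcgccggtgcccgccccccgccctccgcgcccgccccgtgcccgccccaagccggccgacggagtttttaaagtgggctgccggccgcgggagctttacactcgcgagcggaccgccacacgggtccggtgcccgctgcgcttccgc

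The BNIP3 window held 5 separate stretches with a match, the DDIT4 and ALDOC windows 4 each, the ANKRD37 window 2 and the EPAS1 window 1. Windows not shown can hold fewer: those of P4HA1 and ENO2, also higher then lower with TBBD, held 1 each. The palindrome CACGTG occurred in the BNIP3, ANKRD37 and ALDOC windows. The RefSeq table held windows for 31 of the 35 members, 55 windows in all, and 40 of these (72.7%) had a match. Of all 35116 promoter windows in the table, 48.4% had a match, so the motif is common. CACGTG occurred in 7 of the 55 member windows and in 7.26% of all windows. The single windows of EGLN3 and P4HA2 had no match, which says only that these letters are not in those 300 bases. No binding was measured here.

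Glucose uptake and its first phosphorylation showed small differences. The glucose transporter SLC2A1 (GLUT1) read 10.39 on DMSO 1 and 10.89 on DMSO 2, against 10.61 on TBBD 1 and 10.66 on TBBD 2. Its TBBD difference was 0.22 under number 1 and -0.23 under number 2, and the treatment groups overlapped. SLC2A3 (GLUT3), the high-affinity transporter, read 10.90 and 10.91 on the DMSO arrays, 11.29 on TBBD 1 and 10.84 on TBBD 2. TBBD 1 thus stood above 3 arrays that were close together. HK1, the widely expressed hexokinase, differed by 0.13 under number 1 and by -0.26 under number 2. HK2, the inducible hexokinase, was slightly lower with TBBD under both numbers, by -0.08 and -0.13.

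In upper glycolysis, GPI, PFKFB4 and ALDOC shared 1 order of arrays. GPI, which interconverts glucose and fructose phosphates, read 8.98 on DMSO 1 and 9.38 on DMSO 2, against 9.26 on TBBD 1 and 9.11 on TBBD 2. PFKFB4, a regulator of phosphofructokinase, read 6.14, 6.63, 6.41 and 6.32 on the arrays in the same sequence. ALDOC, an aldolase isoform of brain and other tissues, read 7.22, 7.60, 7.47 and 7.27. In all 3 genes DMSO 1 was lowest and DMSO 2 highest, with the TBBD arrays between them. Their TBBD differences were 0.25 to 0.28 under number 1 and -0.33 to -0.27 under number 2. PFKP, the platelet-type phosphofructokinase, differed by 0.17 and -0.09, and PFKFB3 by 0.10 and -0.011. ALDOA, the muscle-type aldolase that most cells express, went the opposite way, with -0.06 under number 1 and 0.20 under number 2.

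Lower glycolysis was mixed. TPI1, which interconverts the triose phosphates, differed by -0.11 and 0.04, against the direction of most members. PGK1, the first enzyme of the pathway to yield ATP, read 10.47 on DMSO 1 and 10.54 on DMSO 2, against 10.59 on TBBD 1 and 10.31 on TBBD 2. ENO1, the enolase of most cells, was slightly lower with TBBD under both numbers, by -0.10 and -0.09. ENO2, the neuron-type enolase and a HIF target, had the widest opposition among the glycolytic genes. It read 7.55 on DMSO 1 and 7.54 on DMSO 2, against 8.13 on TBBD 1 and 6.92 on TBBD 2. The DMSO arrays were nearly equal, while the TBBD difference was 0.58 under number 1 and -0.62 under number 2. A dim ENO2 probeset read 2.42 on TBBD 2, against 4.78 on DMSO 2. The median over probesets gave 0.61 and -0.79, so this probeset did not carry the pattern.

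At the lactate end, LDHA, which converts pyruvate to lactate, read 11.24 on DMSO 1 and 11.68 on DMSO 2, against 11.34 on TBBD 1 and 11.69 on TBBD 2. Both arrays numbered 2 exceeded both numbered 1, and TBBD differed from DMSO by only 0.10 and 0.012. SLC16A3 (MCT4), which exports lactate, read 8.19, 8.30, 8.74 and 8.07 in the same sequence of arrays. TBBD 1 was 0.55 above DMSO 1 and TBBD 2 differed from DMSO 2 by -0.23. Over the 16 glycolytic members, the median TBBD difference was 0.15 under number 1 and -0.18 under number 2, beside -0.02 and 0.01 over all genes.

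The same opposition between numbers was present in the 17 other hypoxia targets, with larger values. Their median TBBD difference was 0.51 under number 1 and -0.22 under number 2. Of the 17, 15 were higher with TBBD under number 1 and 15 were lower under number 2, and 14 did both. For the 16 glycolytic members these counts were 12, 13 and 11. Whether the 2 groups of genes differ was not tested.

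Among secreted factors, VEGFA, the main growth factor for blood vessels, read 7.58 on DMSO 1 and 8.83 on DMSO 2, against 8.32 on TBBD 1 and 8.57 on TBBD 2. Its TBBD difference was 0.74 under number 1 and -0.26 under number 2. DMSO 1 stood lowest and the DMSO arrays enclosed both TBBD arrays. Adrenomedullin, the vasodilator peptide encoded by ADM, read 7.62, 7.16, 8.15 and 7.16 in that sequence. Its TBBD difference was 0.53 under number 1 and 0.0041 under number 2, and it was highest on TBBD 1. With the median over its 5 probesets the number 2 difference was -0.16. The carbonic anhydrases, which regulate pH at the cell surface, did not share the pattern. CA9 differed by -0.13 and 0.17, and CA12 by -0.05 under both numbers.

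Both prolyl hydroxylases on the list are themselves HIF targets and close a feedback loop. EGLN1 (PHD2), the main oxygen sensor, read 7.41 on DMSO 1 and 8.06 on DMSO 2, against 7.50 on TBBD 1 and 7.75 on TBBD 2. EGLN3 (PHD3) read 7.76, 7.67, 7.91 and 6.99 in the same sequence. TBBD 2 stood alone for EGLN3, at a difference of -0.67 from DMSO 2, while the other 3 arrays spanned a narrow range. EGLN1 in contrast was highest on DMSO 2.

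Genes that act on mitochondria included 1 with a wide opposition between numbers. BNIP3, a mitophagy receptor, read 9.62 on DMSO 1 and 10.17 on DMSO 2, against 10.22 on TBBD 1 and 9.81 on TBBD 2. TBBD was 0.60 higher under number 1 and differed by -0.36 under number 2. Its relative BNIP3L (NIX) read 9.75, 10.32, 9.86 and 10.27, which separated the arrays by number and not by treatment. PDK1, which restrains pyruvate entry into mitochondria, differed by 0.06 and -0.25.

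Stress and regulatory targets gave the widest differences. NDRG1, a stress-response gene, read 7.75 on DMSO 1 and 8.69 on DMSO 2, against 8.77 on TBBD 1 and 8.45 on TBBD 2, with DMSO 1 well below the other 3 arrays. Its TBBD difference was 1.02 under number 1, the widest of any member, and -0.24 under number 2. DDIT4 (REDD1), an inhibitor of mTOR signalling, read 7.65, 8.27, 8.48 and 7.60. It differed by 0.83 under number 1 and by -0.67 under number 2, so that DMSO 1 and TBBD 2 were alike and low. ANKRD37, an ankyrin-repeat gene, had the same order of pairs, with 6.12 and 6.21 on DMSO 1 and TBBD 2, and 6.66 and 6.64 on DMSO 2 and TBBD 1. MXI1, a MYC antagonist, read 7.02, 7.04, 7.55 and 6.89 and was highest on TBBD 1. KDM3A, a histone demethylase, differed by 0.27 and -0.05.

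Enzymes of the secretory pathway mostly showed a low DMSO 1 array. P4HA1, a subunit of collagen prolyl hydroxylase, read 8.26 on DMSO 1 and 9.01 on DMSO 2, against 8.98 on TBBD 1 and 8.79 on TBBD 2. P4HA2, its isoform, read 7.08, 7.88, 7.67 and 7.76. For both genes the 3 arrays other than DMSO 1 lay close together. TBBD was higher under number 1 by 0.72 for P4HA1 and by 0.59 for P4HA2. The P4HA2 difference under number 2 was -0.12 and became 0.08 with the median over its 21 probesets. ERO1A, an oxidase that supports disulfide bond formation, differed by 0.13 and -0.15.

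Neither HIF gene was among the 25 members higher with TBBD under number 1 and lower under number 2. HIF1A read 9.62 on DMSO 1 and 9.52 on DMSO 2, against 9.49 on TBBD 1 and 9.59 on TBBD 2, with TBBD differences of -0.13 and 0.07. EPAS1, which encodes HIF-2 alpha, read 7.45, 8.68, 7.75 and 8.90, with TBBD differences of 0.30 and 0.22. Its arrays numbered 2 stood far above those numbered 1 in both treatments.

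**Figure D2:**
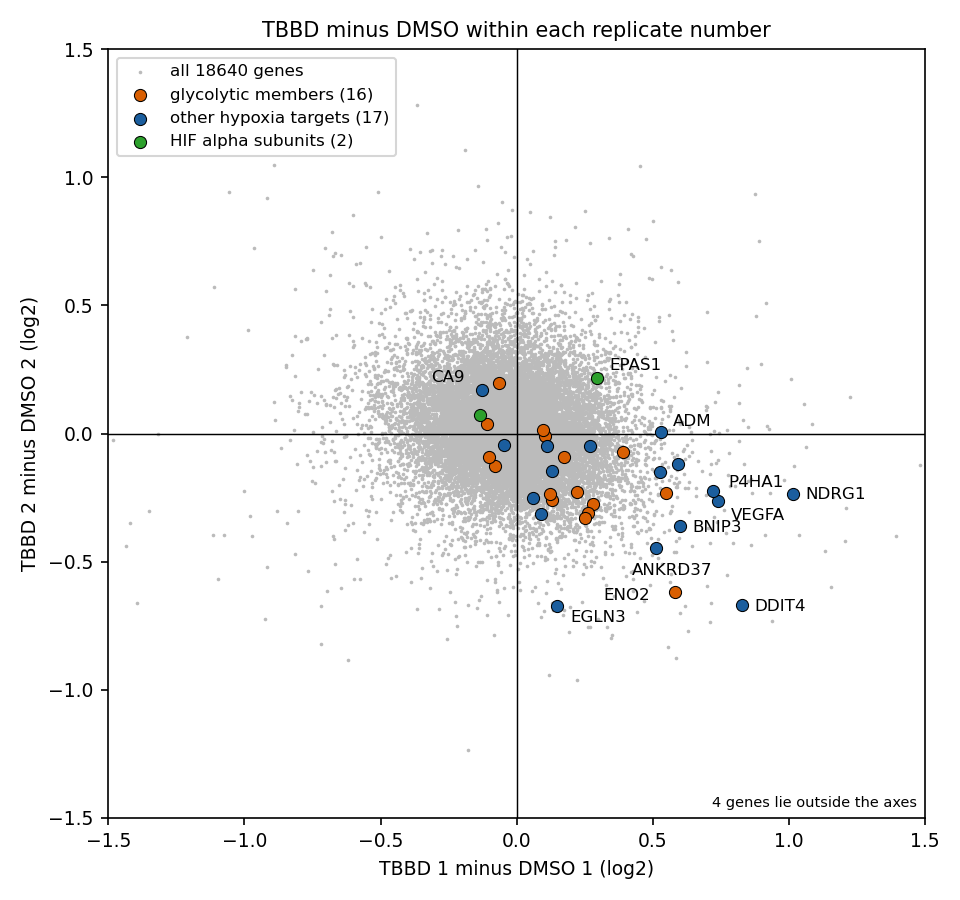
TBBD minus DMSO on the log2 scale for the arrays numbered 1 (horizontal) and for those numbered 2 (vertical). Each grey point is 1 of 18640 genes and coloured points are the 35 members. Of the members, 25 lie at lower right, higher with TBBD under number 1 and lower under number 2. DDIT4 and ENO2 lie lowest among those right of 0.5, and EPAS1 lies in the upper right.

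Large differences under number 1 were frequent among the members. A step of 0.5 log2, chosen after the values were seen, was exceeded under number 1 by 11 of 35 members and by 1.13% of all genes. These were ENO2 and SLC16A3 among the glycolytic genes, and VEGFA, ADM, BNIP3, DDIT4, NDRG1, ANKRD37, MXI1, P4HA1 and P4HA2. All but ADM, that is 10 of 35, were also lower with TBBD under number 2, against 0.746% of all genes. The shares over all genes at this step include dim genes, such as the olfactory receptors. They were not taken over bright genes alone. In the other direction, ENO2, EGLN3 and DDIT4 were lower with TBBD by at least 0.5 under number 2, 3 of 35 against 0.697%.

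Of the remaining members, ALDOA, TPI1, CA9 and HIF1A (4 of 35, all genes 31.7%) were lower with TBBD under number 1 and higher under number 2. LDHA, ADM and EPAS1 (3 of 35, all genes 21.5%) were higher with TBBD under both numbers, and HK2, ENO1 and CA12 (3 of 35, all genes 23%) were lower under both. Many of these differences were small. When probesets were summarised by their median and not their mean, the sign changed for ADM, LDHA and P4HA2 under number 2 and for BNIP3L, CA12, PDK1 and PFKFB3 under number 1.

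Single arrays weighed heavily in these differences. DMSO 1 was the lowest of the 4 arrays for 17 of 35 members, among them 10 of the 17 other targets, against 23.1% of all genes. DMSO 2 exceeded DMSO 1 by at least 0.5 for 11 members (all genes 4.02%), namely SLC2A1, VEGFA, EGLN1, BNIP3, BNIP3L, DDIT4, NDRG1, ANKRD37, P4HA1, P4HA2 and EPAS1. TBBD 2 lay at least 0.5 below TBBD 1 for 7 members (all genes 4.1%), namely ENO2, SLC16A3, ADM, CA12, EGLN3, DDIT4 and MXI1. For 15 members DMSO 2 exceeded DMSO 1 while TBBD 2 lay below TBBD 1, against 15.2% of all genes. These counts reuse the same 4 arrays as the TBBD differences and do not support them independently.

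Agreement within a gene was checked over its probesets, which share the array and are no replicates. For BNIP3, 10 of 10 probesets were higher with TBBD under number 1 and lower under number 2. The same held for 3 of 3 probesets of ANKRD37, 14 of 16 of P4HA1, 16 of 19 of GPI, 11 of 13 of ENO2, 13 of 16 of NDRG1 and 13 of 16 of VEGFA. It held for 4 of 5 probesets of DDIT4, 9 of 11 of SLC2A1 and 12 of 16 of PGK1. Other members divided, such as ERO1A with 6 of 16 and EGLN1 with 2 of 7. RefSeq lists 46 numbered pseudogenes of BNIP3, 6 of LDHA and 4 each of ENO1 and TPI1, whose transcripts a probe could also bind, so the levels of these genes are uncertain to that extent. A dim BNIP3 probeset, at 6.05 to 6.69, had an identifier apart from the consecutive ones of the rest. Its locus was not checked.

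**Figure D3:**
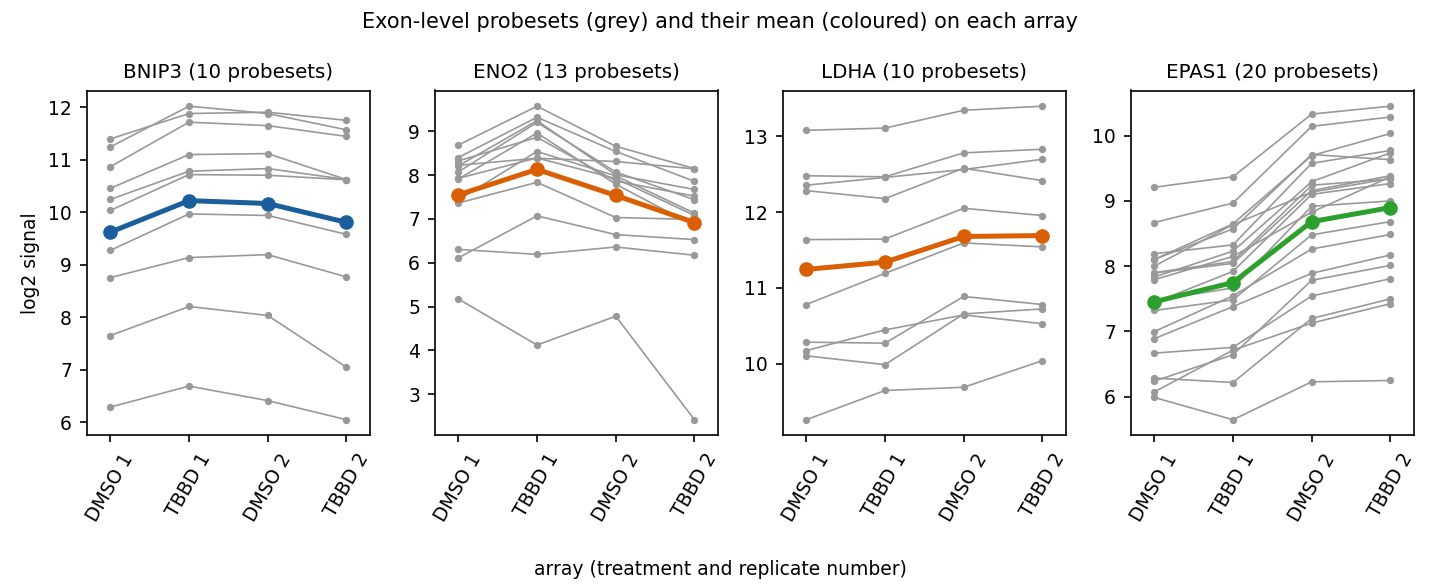
Log2 signal of single exon-level probesets (grey lines) and their mean (coloured) on the 4 arrays for BNIP3, ENO2, LDHA and EPAS1. In BNIP3 all 10 probesets climb from DMSO 1 to TBBD 1 and drop from DMSO 2 to TBBD 2, whereas all 10 of LDHA and all 20 of EPAS1 are higher on the arrays numbered 2.

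The averaged TBBD effect was small beside its error. TBBD minus DMSO ranged over the members from -0.26 for EGLN3 to 0.39 for NDRG1. NDRG1 differed by 0.39 ± 0.33 (SE, n = 2 arrays per group), with a 95% interval of -0.46 to 1.24, and its p in limma's test was 0.293 before adjustment, the smallest of any member. Without DMSO 1 the NDRG1 difference was -0.08. EGLN3 differed by -0.26 ± 0.31 (SE) with an interval of -1.06 to 0.53, and by 0.20 without TBBD 2. The interval reached a median of 0.50 to either side of the difference over the 35 members. The adjusted threshold was harder to pass: on simulated arrays this fit recovered 35.8% of genes altered 2-fold, so most changes of that size were missed. With the replicate number as a block the interval reached a median of 0.32 to either side. No member had an unadjusted p under 0.05 by limma in that fit either, the smallest being 0.0619.

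The averaged medians of the lists were near 0. The glycolytic members had a median of -0.011, with 7 higher and 9 lower with TBBD, and the other targets a median of 0.08, with 12 higher and 5 lower. For the other targets this median was -0.13 without DMSO 1 and -0.04 without TBBD 1, so its direction rested on single arrays. The interval for each member does not show that TBBD leaves it unchanged.

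The replicate number separated a few members more clearly than treatment did, although the fits differed. The main treatment fit had group alone, so variation between the numbers stayed in its error. The number fit had 1 array per treatment and number. Its error for a gene came from the disagreement between the number differences of DMSO and TBBD, moderated over all genes. Its p-values therefore do not measure spread between repeats of a number. In limma's fit with group and number, EPAS1 was 1.19 ± 0.115 (SE) higher on the arrays numbered 2, with a 95% interval of 0.92 to 1.46 and an adjusted p of 0.00407. It was higher by 1.23 between the DMSO arrays and by 1.15 between the TBBD arrays, in 20 of 20 probesets each time. CA12 was the only other member past the threshold, at -0.67 and an adjusted p of 0.0289 by limma, with 9 of 14 probesets lower in both treatments. Group and number cannot both be fitted on 3 arrays, so fits that left out an array had number as the only term. With that term and all 4 arrays, the CA12 adjusted p by limma was 0.0125. It was 0.0532 when DMSO 1 was left out of that fit and 0.0656 when TBBD 2 was, the range over the alternatives being 0.0125 to 0.0656. Calls in either direction thus numbered 2 of 35 members against 3.5% of all genes, with 1 higher (all genes 2.3%) and 1 lower (1.21%).

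Other members separated by number without passing the adjusted threshold. LDHA was 0.39 higher on the arrays numbered 2 (adjusted p = 0.129 by limma), BNIP3L 0.49 higher (0.0807) and VEGFA 0.76 higher (0.128), while ADM was -0.72 (0.0545). With number as the only term, VEGFA differed by 0.76 with all 4 arrays in the fit (adjusted p = 0.111 by limma) and by 1.13 without TBBD 1 (0.0225), within a range of 0.0225 to 0.264 over the alternatives. In all, 10 of 35 members had an unadjusted p under 0.05 for number, against 18.2% of all genes. Both arrays numbered 2 lay above both numbered 1 for SLC2A1, LDHA, VEGFA, EGLN1, BNIP3L, KDM3A, P4HA2 and EPAS1, 8 of 35 against 25.1% of all genes. They lay below for HK2, PFKP, ENO1, ENO2, ADM, CA12, EGLN3 and PDK1, 8 of 35 against 25.9%. Separation by number was thus about as frequent among the members as over the whole array.

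**Figure D4:**
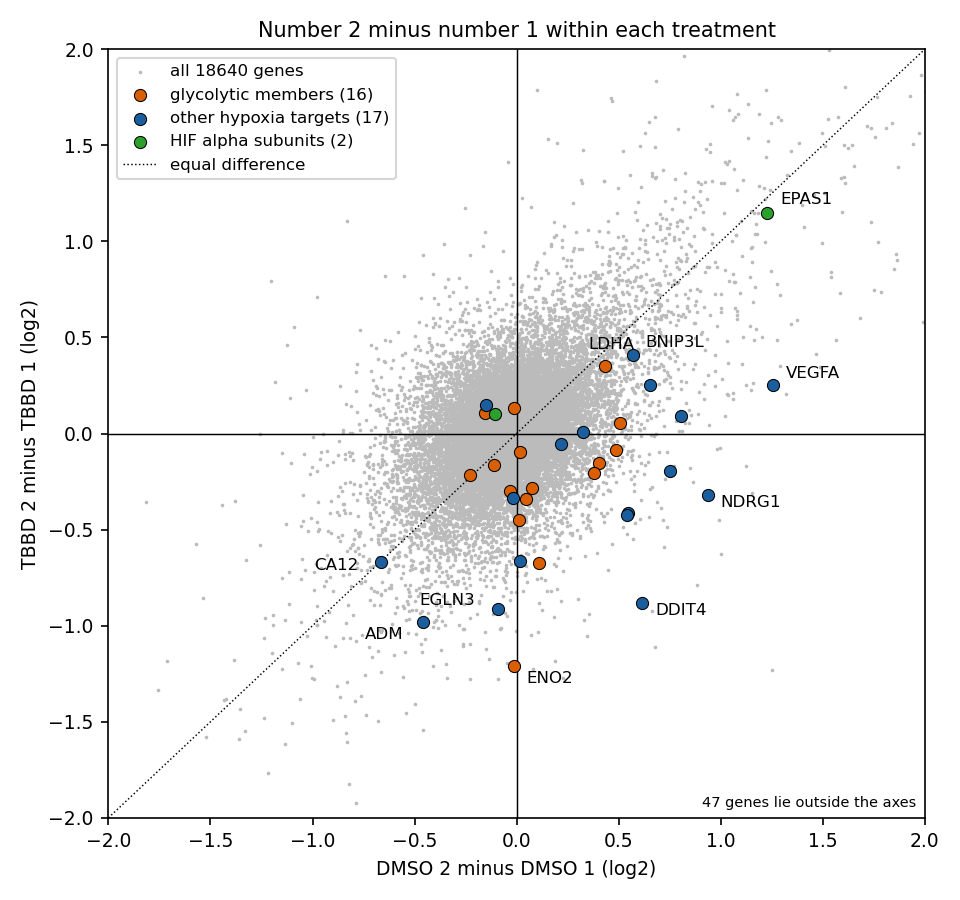
Number 2 minus number 1 on the log2 scale within DMSO (horizontal) and within TBBD (vertical), with all 18640 genes in grey, the 35 members coloured and equal differences dotted. EPAS1 and CA12 lie near the dotted line, whereas NDRG1 and DDIT4 lie at right below 0, higher on DMSO 2 than on DMSO 1 but lower on TBBD 2 than on TBBD 1.

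Markers of other cell types also differed between the arrays. The mean level of 8 endothelial markers was 6.13 on DMSO 1 and 6.11 on TBBD 1, against 6.84 on DMSO 2 and 7.15 on TBBD 2, and 6 of the 8 were called higher by number, against 2.3% of all genes. That of 9 mesenchyme and matrix markers was 8.13 and 8.22 against 9.56 and 9.71. Of these 9, 7 were called higher, while TAGLN was lower, at -0.33, without being called. EPAS1 and LDHA were also higher on the arrays numbered 2, by similar amounts in both treatments. VEGFA differed by number mostly within DMSO, by 1.26, against 0.25 within TBBD. The part of these lists in the results for those genes was not tested. In these bulk samples, fewer cells of a type and less RNA per cell cannot be told apart.

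The 6 primitive streak markers had a mean level of 7.34 on DMSO 1, against 6.20 on DMSO 2, 6.23 on TBBD 1 and 6.01 on TBBD 2. All 6 were higher on DMSO 1 than on TBBD 1, the array pair in which NDRG1, DDIT4 and most other targets were lower on DMSO 1. Their median TBBD difference was -1.17 under number 1 and -0.21 under number 2, and their part in the members' pattern was not tested. The 11 measured pluripotency markers averaged 7.88, 7.61, 7.69 and 7.34 on DMSO 1, DMSO 2, TBBD 1 and TBBD 2. This mean joins genes that moved in opposite directions by number. By limma, 4 of the 11 were called lower on the arrays numbered 2, against 1.21% of all genes. Only SOX2 was called higher, by 1.29, against 2.3% of all genes.

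Further genes of the pathway were read from lists made by name, also with earlier results of these data known. None of 14 other glycolysis genes, 12 genes of the oxygen-sensing machinery or 33 other hypoxia targets was called for TBBD by limma. At an unadjusted p under 0.05 by limma, 2 of the 33 other targets (6.06%) were found, against 0.746% of all genes. None was found in the glycolysis and oxygen-sensing lists. The genes were PPP1R3C, which targets a phosphatase to glycogen, and LOX, which crosslinks collagen, at 0.55 and 0.67 higher with TBBD. Opposite directions under the numbers, higher then lower, were found for 4 of 14, 3 of 12 and 13 of 33, beside 23.6% of all genes. The 33 further targets had a median TBBD difference of 0.20 under number 1 and -0.011 under number 2. The other glycolysis genes, at 0.02 and -0.03, and the oxygen-sensing genes, at -0.011 and -0.0081, stayed near 0.

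By number, 2 of the 33 further targets (6.06%) were called higher and none lower, against 2.3% and 1.21% of all genes. IGFBP3, which binds insulin-like growth factors, was 1.76 higher on the arrays numbered 2 (adjusted p = 0.00115 by limma), and PLOD1, a collagen lysyl hydroxylase, 0.65 higher (0.0314). With number as the only term, the PLOD1 adjusted p by limma was 0.0132 on all 4 arrays, 0.0513 without DMSO 1 and 0.0572 without TBBD 2, which span the range over the alternatives. No other glycolysis or oxygen-sensing gene was called by limma, and 3 of 14 (21.4%) and 1 of 12 (8.33%) had an unadjusted p under 0.05, against 18.2% of all genes. The monocarboxylate transporter SLC16A1 was -0.52 and LDHB, the heart-type lactate dehydrogenase subunit, -0.51, both lower on each array numbered 2, with adjusted p of 0.0654 and 0.0677 by limma. Among oxygen-sensing genes, ELOC, a partner of VHL, was -0.29 and ARNT2, a partner of HIF alpha, 0.27.

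Of the 33 further targets, 4 (12.1%) were at least 0.5 higher with TBBD under number 1 and lower under number 2, against 0.746% of all genes. These 4 were singled out after their values were seen. TXNIP, an inhibitor of glucose uptake, read 7.91 on DMSO 1 and 10.04 on DMSO 2, against 9.39 on TBBD 1 and 9.92 on TBBD 2, again with a low DMSO 1. HILPDA, a lipid droplet gene, read 7.28, 7.61, 8.15 and 7.18. WSB1 read 9.43, 10.16, 10.35 and 9.76, and FAM162A read 6.36, 7.05, 6.90 and 6.54. The last pair of genes had their lower values on DMSO 1 and TBBD 2, the order also seen in BNIP3, DDIT4 and ANKRD37.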

How the data were processed

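RNA was measured on 4 arrays. The deposited values are log2 signals that the authors made with RMA, per the submitters' processing notes. Not given in the sources used here are the RMA version, its settings and the genome build of the array design. Of 247312 probesets, 277 with a placeholder value were left out. Those with several gene symbols (9980) or none (18151) were not used. The other 218927 were averaged per gene and array, giving 18640 genes. The number of arrays limits the precision.

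Groups and numbers came from the titles. Limma's moderated test, two-sided, was fitted with group alone for TBBD minus DMSO, and with group and number for number 2 minus number 1. P-values were adjusted over all genes by the Benjamini-Hochberg method and called at 0.05. The members and lists were chosen with earlier results of these data known. Every member is accounted for. Of other lists, up to 3 called genes per direction with the smallest p were named, or else up to 2 separated genes with the largest difference; where 4 further genes were named after their values were seen, the text says so. Marker lists for early blood (5 genes measured, mean 5.64 to 5.72), neural progenitors (5, 6.14 to 6.32) and visceral endoderm and liver (9, 5.59 and 5.75 on the arrays numbered 1, 6.69 and 6.84 on those numbered 2) were also read.

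The fits were tested on simulated arrays of 18640 genes, with noise drawn separately for each array. For TBBD minus DMSO, recovery was 35.8% for the 67 genes altered 2-fold, 89.6% for the 67 altered 4-fold and 98.5% for the 66 altered 8-fold. For number 2 minus number 1, it was 97% for those altered 2-fold. Alternatives were another normalization, median centring, filters on dim genes or few probesets, the median over probesets, other limma settings and leaving out each array. R 4.3.3, limma 3.58.1, Python 3.11.15, numpy 2.4.6, pandas 2.3.3 and matplotlib 3.10.9 were used.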

Additional observations from a re-analysis of the deposited data

Results flagged for a closer look

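TBBD minus DMSO had opposite directions under the 2 replicate numbers in both groups of members. The median over the 16 glycolytic members was 0.1515 between the arrays numbered 1 and -0.178 between those numbered 2. The median over the 17 other hypoxia targets was 0.5138 between the arrays numbered 1 and -0.2239 between those numbered 2. Each number holds 1 array per treatment, so the difference between the numbers was not tested.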

How the results depend on the processing

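No gene was called for TBBD minus DMSO at an adjusted p of 0.05 by limma under any of 13 alternatives, while the count at an unadjusted p under 0.05 was 139 and ranged from 23 with the brightest 9320 genes to 496 with the replicate block. The replicate block left the medians at -0.0106 for glycolytic members and 0.0798 for other targets, no member had an unadjusted p under 0.05, and it changed no call. The differences between numbers within DMSO and within TBBD correlated at 0.566 across genes, a hint from the data that the number marks something both treatments share. No label states this and there are only 2 pairs, so the design was not treated as paired. The number 2 minus number 1 count of 653 became 1001 with number as the only term. Group and number cannot both be fitted on 3 arrays, so fits without 1 array also had number as the only term, and compare with 1001: they gave 368 (without TBBD 2) to 685, with 436 without DMSO 1 and 534 without TBBD 1. When 1 array was left out, TBBD minus DMSO ranged from -0.0786 to 0.8571 for NDRG1, from -0.7173 to 0.1952 for EGLN3 and from -0.3589 to 0.8703 for EPAS1; the cause was not tested. In those fits the median over other targets for number, 0.0657 on all 4 arrays, was -0.1983 without DMSO 1 and 0.3005 without TBBD 1. The within-number medians kept their direction in 6 settings chosen after seeing the data, with 11 glycolytic members and 13 to 15 other targets higher under number 1 and lower under number 2. Leaving out 1 array per group leaves a lone array assumed to vary like the others.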

Other observations

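Genes that govern pyruvate entry into mitochondria and the pentose phosphate pathway, which draws sugar away from glycolysis, were read beside the 35 members. None of 15 was called for TBBD by limma, none had an unadjusted p under 0.05, and their median TBBD difference was -0.04 under number 1 and -0.0065 under number 2. By number, PDK4, a kinase that inhibits pyruvate dehydrogenase, read 5.95 on DMSO 1 and 7.06 on DMSO 2, against 6.32 on TBBD 1 and 6.82 on TBBD 2, and was 0.81 higher on the arrays numbered 2 (adjusted p = 0.0483 by limma). TALDO1, a transaldolase of the pentose phosphate pathway, read 8.90, 8.18, 8.73 and 8.07 and was -0.69 (adjusted p = 0.0275 by limma). Fits that left out an array had number as the only term. With that term, the PDK4 adjusted p by limma was 0.0282 on all 4 arrays, 0.0923 without DMSO 1 and 0.079 without DMSO 2. With group and number it was 0.0577 after repeated quantile normalization and 0.0555 with the brightest 9320 genes, and its range over the alternatives was 0.023 to 0.0923. With number as the only term, the TALDO1 adjusted p by limma was 0.0171 on all 4 arrays, 0.0698 without DMSO 1 and 0.084 without TBBD 2. With group and number and the median over probesets it was 0.155, the top of a range that began at 0.0132. Of the 15 genes, 8 had both arrays numbered 2 below both numbered 1, where 25.9% of all genes did.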
